A study of Mus musculus with 2 samples.

Results

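The genes of fat synthesis, storage and lipolysis analysed here are a list of 54 genes, set against TET2 peaks on the mouse genome build GRCm38. They were taken by name from a list of enzymes, transporters and droplet proteins, and all 54 were found among the 21951 protein-coding genes of the GENCODE M21 annotation. By step they were 10 genes of fatty acid uptake and activation, 29 of fatty acid and triglyceride synthesis and its control, 8 of the lipid droplet coat and 7 of lipolysis. TET2 binding had been measured by ChIP-seq in stem cells from mouse inguinal white fat that were turned into adipocytes in culture with IBMX, dexamethasone and insulin, and then kept on insulin. There was 1 TET2 library and 1 input library, which is the same kind of chromatin sequenced without the antibody, and the labels give no genotype, strain, sex, age or treatment other than the differentiation. The authors called 14103 peaks with MACS2, and each has an interval and a −log10 p. That value measures the evidence that TET2 fragments exceeded the input, not the strength of binding. The p-value setting stated in the paper equals a −log10 p of 5. The deposited values nevertheless ran down to 3.07, and 11921 of the 14103 were at 5 or more. No reason for this is given. There was no replicate, so no difference was tested. The sources give a total yield of sequencing data but no reads per library. Each 95% interval is an exact binomial (Clopper-Pearson) interval over genes or peaks that covers counting error only. The list holds no expression values, so the adipocyte identity of the cells and the activity of the genes could not be checked.

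Fat cells take up fatty acids released from lipoproteins or make them from acetyl-CoA, join them to glycerol to give triglyceride, and keep the triglyceride in a droplet whose coat proteins control access to it. When energy is needed, lipases on the droplet release the fatty acids and glycerol again. TET2 is a dioxygenase that oxidises 5-methylcytosine, which in mammals lies mostly at CpG dinucleotides, and CpG-rich promoters are the places in the genome where unmethylated CpGs are densest.

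The sequences below show what was found under the peaks and where peaks were missing. The first 6 are stretches of promoter peaks, namely the peak with the largest −log10 p in each step that held at least 50 bases outside every annotated exon, and the next 2 peaks by −log10 p. They were read on the strand of the gene from GRCm38, with each CpG in capitals.
Slc27a4: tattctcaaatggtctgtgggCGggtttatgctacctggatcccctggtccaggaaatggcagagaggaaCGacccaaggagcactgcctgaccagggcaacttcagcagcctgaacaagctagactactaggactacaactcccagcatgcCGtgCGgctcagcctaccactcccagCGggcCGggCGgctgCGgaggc
Insig1: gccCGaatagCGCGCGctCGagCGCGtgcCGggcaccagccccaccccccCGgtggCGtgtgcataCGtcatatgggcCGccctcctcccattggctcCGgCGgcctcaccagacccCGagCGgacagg
Plin4: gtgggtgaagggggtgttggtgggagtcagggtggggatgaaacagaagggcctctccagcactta
Abhd5: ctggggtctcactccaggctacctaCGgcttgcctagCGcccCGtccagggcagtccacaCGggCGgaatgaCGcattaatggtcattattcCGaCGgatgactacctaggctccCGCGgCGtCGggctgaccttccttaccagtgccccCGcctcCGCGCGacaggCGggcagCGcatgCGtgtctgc
Acaca: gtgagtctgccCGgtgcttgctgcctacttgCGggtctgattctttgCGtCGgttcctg
Pnpla2: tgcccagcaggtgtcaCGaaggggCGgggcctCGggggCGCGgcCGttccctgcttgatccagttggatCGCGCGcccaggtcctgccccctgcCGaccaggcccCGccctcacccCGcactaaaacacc

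These are chr2:29802434-29802633 (plus strand) before the TSS of Slc27a4, chr5:28071106-28071234 (plus) before that of Insig1 and chr17:56109627-56109692 (minus) in intron 1 of Plin4. The others are chr9:122351419-122351607 (plus) before the TSS of Abhd5, chr11:84180194-84180252 (plus) in an intron of Acaca and chr7:141455058-141455187 (plus) before the TSS of Pnpla2. The 189 bases at Abhd5 held 19 CpGs and the 129 at Insig1 held 16, while the 66 bases at Plin4 held 0.

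The next 4 are from members with no peak in any class. They are bases before the TSS with the highest CpG ratio of the gene, for the 3 such members with the lowest ratios and the 1 with the highest ratio among those with at least 100 exon-free bases there.
Aqp7: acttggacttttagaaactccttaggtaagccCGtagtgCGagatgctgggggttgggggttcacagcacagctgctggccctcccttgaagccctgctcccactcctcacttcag
Gpd1: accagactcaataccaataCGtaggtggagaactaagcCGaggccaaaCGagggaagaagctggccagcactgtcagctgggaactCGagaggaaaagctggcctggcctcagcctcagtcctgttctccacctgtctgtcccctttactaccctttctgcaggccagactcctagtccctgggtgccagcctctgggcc
Plin3: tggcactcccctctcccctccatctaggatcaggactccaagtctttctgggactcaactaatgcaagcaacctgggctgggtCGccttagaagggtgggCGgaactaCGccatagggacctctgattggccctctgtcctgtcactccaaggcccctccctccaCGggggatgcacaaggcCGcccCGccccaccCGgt
Lpin2: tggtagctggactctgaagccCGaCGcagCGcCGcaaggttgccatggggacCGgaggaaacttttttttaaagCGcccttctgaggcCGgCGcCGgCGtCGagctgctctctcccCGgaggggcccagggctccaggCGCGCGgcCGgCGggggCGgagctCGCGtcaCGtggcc

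They lie at chr4:41036395-41036510 (minus strand) for Aqp7, chr15:99717315-99717514 (plus) for Gpd1, chr17:56290512-56290711 (minus) for Plin3 and chr17:71183356-71183531 (plus) for Lpin2. The 176 bases at Lpin2 held 21 CpGs, more than any of the 6 stretches under a peak, although Lpin2 had no peak, and the nearest midpoint was 65195 bp from its closest TSS. The 200 bases at Gpd1 held 4 CpGs and the 116 at Aqp7 held 2.

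Each gene was placed in the first class that held the midpoint of a peak: within 1 kb of any of its transcription start sites (TSSs), 1 to 3 kb from one, elsewhere in the gene body, or outside the gene with the gene's TSS as the nearest of any protein-coding gene and at most 50 kb away. A promoter peak, within 1 kb, was present at 15 of the 54 members, or 27.8% (16.5 to 41.6), against 24.6% over the 21951 protein-coding genes. The members' share was thus near that of genes in general. Within 3 kb there were 17 members (31.5%, 19.5 to 45.6), against 28.5% of all protein-coding genes. In any of the 4 classes there were 30 members (55.6%, 41.4 to 69.1), against 42% of all. Gene body peaks were the class of 8 members (14.8%, 6.62 to 27.1) against 7.93% of all, and the nearest-gene class took 5 (9.26%, 3.08 to 20.3) against 5.60%. The remaining 24 members had no peak in any class. The members had a median of 5 annotated TSSs each and all protein-coding genes a median of 3. Counting only the first base of each gene as its TSS, 13 of the 54 members had a promoter peak, and 20.1% of protein-coding genes in general.

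The steps differed in their counts. Lipolysis had a promoter peak at 5 of 7 genes (71.4%, 29.0 to 96.3) and synthesis at 7 of 29 (24.1%, 10.3 to 43.5). Uptake had one at 2 of 10 (20%, 2.52 to 55.6) and the droplet coat at 1 of 8 (12.5%, 0.316 to 52.7). Within synthesis, promoter peaks were at 4 of 13 genes of fatty acid synthesis, 2 of 12 genes of glycerolipid assembly and 1 of 4 control genes. The intervals of all 4 steps overlap one another, and with 7 to 29 genes a step these shares are descriptions.

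**Figure D1:**
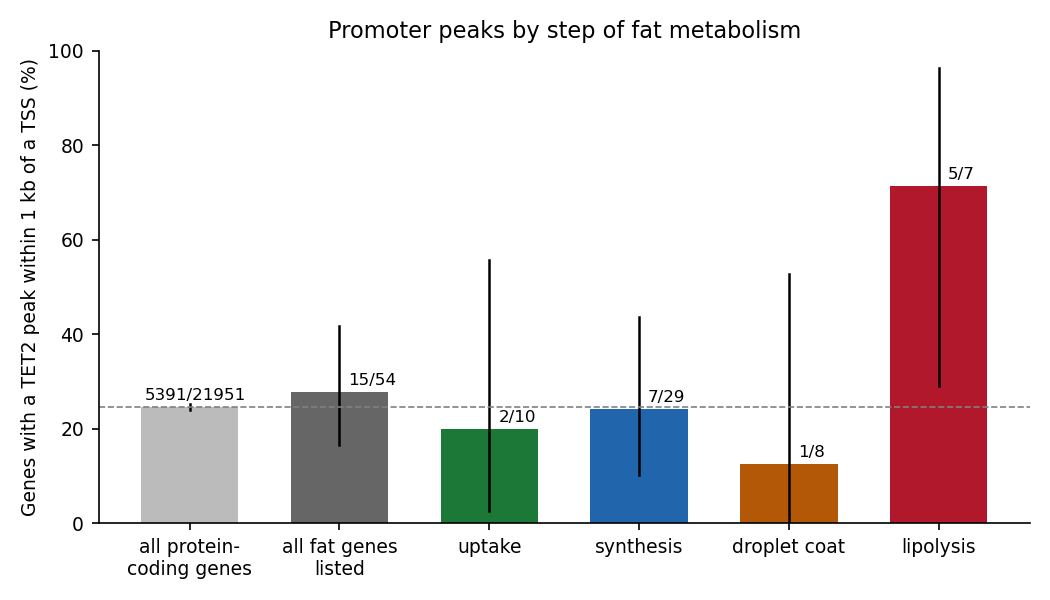
Share of genes with a TET2 peak midpoint within 1 kb of any TSS (y axis, %), for all 21951 protein-coding genes, all 54 members and the 4 steps (x axis). Bars show the share, vertical lines the exact 95% binomial interval, numbers the count, and the dashed line the 24.6% of all protein-coding genes. This line lies below the interval of lipolysis (29.0 to 96.3) and inside those of the other steps. No difference from it was tested, and the genes were chosen with earlier results of these data known.

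Among the lipolysis genes, the enzyme that takes the first fatty acid off triglyceride, its activator, its inhibitor and the enzyme of the last step all had a promoter peak. Abhd5, the activator of adipose triglyceride lipase, had the largest −log10 p of any member promoter peak, 11.1, and 4.82% of all deposited peaks had a larger one. The peak covered chr9:122351419-122352014, had its midpoint 14 bp upstream of a TSS in the 5′ UTR of another transcript, and held 81 CpGs in 596 bp. Pnpla2, which encodes adipose triglyceride lipase itself, had a peak of −log10 p 8.79 at chr7:141455058-141455499, with the midpoint 49 bp downstream of the TSS in the 5′ UTR. Both of these peaks covered the TSS.

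G0s2, the inhibitor of adipose triglyceride lipase, had a peak of −log10 p 6.21 at chr1:193272341-193272715. It lay 689 bp downstream of the only annotated TSS, in coding exon 2, and was the promoter peak farthest from its TSS. A TSS of the neighbouring gene Lamb3 was 810 bp from the same midpoint. Mgll, the monoglyceride lipase of the last step, had a peak of −log10 p 5.45 at chr6:88724364-88724745, 42 bp upstream of a TSS in the 5′ UTR of another transcript, and a TSS of the antisense gene Gm26588 was 53 bp away. Pnpla3, a lipid droplet protein related to Pnpla2, had one of −log10 p 7.21 at chr15:84167796-84168441, 281 bp downstream of the TSS in intron 1. The annotated start of the microRNA gene Mir6392 was 152 bp from that midpoint. No peak in any class was found at the other 2 lipolysis genes, Lipe, which encodes hormone-sensitive lipase, and Aqp7, a glycerol channel; the nearest midpoints were 19787 and 45630 bp from a TSS.

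Among the enzymes that make and modify fatty acids, the carboxylase, an elongase and a pair of desaturases had promoter peaks. Acaca, acetyl-CoA carboxylase of the cytosol, which makes malonyl-CoA, had a peak of −log10 p 10.1 at chr11:84179854-84180514. The TSS it covered is an internal one, 326 bp upstream of the midpoint. RefSeq places a TSS 69 bp downstream of that midpoint. A further Acaca peak, at chr11:84152033-84152407 in an intron, had a −log10 p of 6.04, and its nearest protein-coding TSS belonged to another gene. Thus both Acaca peaks lay inside the gene, 50512 and 22548 bp downstream of its first base.

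Fads1, a desaturase that makes polyunsaturated fatty acids, had a peak of −log10 p 8.10 at chr19:10182662-10183132, with the midpoint 9 bp downstream of the TSS in the 5′ UTR. Its relative Fads3, a sphingolipid desaturase, had one of 6.04 at chr19:10041288-10041874, 12 bp downstream of the TSS in the 5′ UTR. Fads2, which lies between them on the same chromosome, had no peak in any class, and its closest TSS was 29606 bp from a midpoint. Elovl5, an elongase of polyunsaturated fatty acids, had a peak of −log10 p 7.21 at chr9:77917262-77918069, 231 bp downstream of a TSS in intron 1. At 808 bp it was the longest member promoter peak. It had a further peak 6507 bp upstream of the TSS, at chr9:77910594-77911121, with a −log10 p of 5.54.

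In contrast, the other enzymes of this group had peaks inside the gene or none. Acacb, the carboxylase of the mitochondrial surface, had a peak of −log10 p 9.72 at chr5:114210841-114211277 in coding exon 20, 11280 bp downstream of its closest TSS. Me1, malic enzyme, which makes NADPH for fatty acid synthesis, had one of 9.80 at chr9:86611122-86611635 in intron 9, 7326 bp downstream of a TSS. Scd1, the main stearoyl-CoA desaturase of fat and liver, had one of 9.34 at chr19:44395533-44396312 in its 3′ UTR, 10768 bp downstream of a TSS. Those TSSs were of transcripts not classed as protein-coding. The closest TSS of a protein-coding transcript was 35153 bp away at Acacb, 75899 bp at Me1 and 11787 bp at Scd1. These 3 peaks were all above the upper quartile, 7.53, of the 8933 deposited peaks outside the promoters of protein-coding genes. Scd1 also had a peak outside the gene, 18150 bp downstream of its closest TSS at chr19:44388299-44388781, of −log10 p 8.37.

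Elovl6, an elongase of saturated fatty acids, had a smaller peak, −log10 p 6.21, at chr3:129612742-129613116 in intron 2, 60549 bp downstream of its closest TSS. Acss2, which makes acetyl-CoA from acetate, had one of 4.12 at chr2:155525862-155526236 in intron 2, 7942 bp downstream of a TSS. The nearest protein-coding TSS to that peak belonged to another gene. Fasn, the fatty acid synthase, had its peak, −log10 p 4.96, at chr11:120813662-120814036 in coding exon 23. It counted as 1606 bp from a TSS only because of an internal TSS of a transcript with a retained intron, and it was 10698 bp from the first base of the gene. Acly, which makes acetyl-CoA from citrate, and Scd2, a relative of Scd1, had none.

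Of the genes that join fatty acids to glycerol, the first and the last enzyme had promoter peaks. Gpam, the mitochondrial acyltransferase of the first step, had one of −log10 p 8.64 at chr19:55099139-55099579, 92 bp downstream of a TSS in the 5′ UTR and 27879 bp downstream of the gene's first base. A TSS of the antisense gene AC110206.1 was 143 bp from its midpoint. Dgat1, which adds the last fatty acid to make triglyceride, had one of 5.13, the smallest of the member promoter peaks, at chr15:76511600-76511974, 39 bp downstream of a TSS in the 5′ UTR. Dgat2, the other enzyme of that step, had none. Agpat3, an acyltransferase of the middle of the pathway, had a peak of −log10 p 6.21 in its 3′ UTR at chr10:78272329-78272703. That peak lay 5920 bp downstream of a TSS of a retained-intron transcript and 22878 bp from the closest TSS of a protein-coding transcript. Among protein-coding genes, Mogat2, a monoacylglycerol acyltransferase, was nearest to a peak 10574 bp upstream of it, at chr7:99248961-99249425, of −log10 p 7.05. A TSS of the processed pseudogene Gm18943 was 373 bp from the midpoint of that peak. No peak in any class was found at Agpat1 and Agpat2, Lpin1, Lpin2 and Lpin3, which encode phosphatidate phosphatases, Mogat1, or Gpd1, which makes the glycerol phosphate backbone. At Lpin1 this depended on the annotation. A peak of −log10 p 9.27 at chr12:16653614-16654017 was 42849 bp upstream of the gene in GENCODE but 88 bp from the start of a RefSeq transcript of Lpin1, while the nearest protein-coding TSS in GENCODE was that of Ntsr2.

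The 4 control genes included the largest peak of all members. Scap, which escorts the sterol-regulated factors SREBP out of the endoplasmic reticulum, had a peak of −log10 p 11.5 at chr9:110380898-110381716, and 3.73% of deposited peaks had a larger value. It was in coding exon 17 and 819 bp long. The closest TSS, 3014 bp away, was that of a transcript with a retained intron, and the closest TSS of a protein-coding transcript was 37108 bp away. Insig1, which holds Scap back in the endoplasmic reticulum, had a promoter peak of −log10 p 10.3 at chr5:28070745-28071234, 374 bp upstream of its TSS and 116 bp from a TSS of the long noncoding RNA gene Gm26608. A second Insig1 peak, 43386 bp upstream at chr5:28027790-28028164, had a −log10 p of 5.32. Mlxipl, which encodes the glucose-responsive factor ChREBP, and Thrsp, a lipogenic protein under thyroid hormone control, had no peak in any class.

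Of the genes of fatty acid uptake and activation, a transporter and an acyl-CoA synthetase had promoter peaks. Acsl4, a synthetase that prefers arachidonic acid, had one of −log10 p 7.34 at chrX:142390274-142390683, 26 bp downstream of a TSS in the 5′ UTR. On chromosome X 6.96% of protein-coding genes had a promoter peak, and Acsl4 was the only member there. Slc27a4, a fatty acid transport protein, had one of 6.26 at chr2:29802393-29803119, 122 bp downstream of the TSS in the 5′ UTR. Its relative Slc27a1, the insulin-responsive transporter of fat and muscle, had no promoter peak. Slc27a1 had a large peak in intron 9, of −log10 p 10.8 and 942 bp long, at chr8:71583946-71584887. That peak lay 3900 bp downstream of a TSS of a retained-intron transcript and 14244 bp from the closest TSS of a protein-coding transcript.

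The lipoprotein lipase, the fatty acid binding proteins and Cd36 had no peak near a TSS. Lpl, the lipoprotein lipase that frees fatty acids from lipoproteins, was the nearest protein-coding gene to a peak of −log10 p 6.21 at chr8:68932234-68932608. That peak lay 41677 bp downstream of the closest Lpl TSS, that of a processed transcript. The closest TSS of a protein-coding Lpl transcript was 51930 bp away, beyond the 50 kb limit. Lpl, Fabp4 and Fabp5 were nearest among protein-coding genes only, and none of them stayed so with genes of every type. Fabp4, the main fatty acid binding protein of adipocytes, was nearest to a peak 15763 bp upstream at chr3:10224152-10224526, of −log10 p 5.13. A TSS of 4632432E15Rik, which is not a protein-coding gene, was 906 bp from its midpoint. Fabp5, a relative of Fabp4, was nearest to a peak 44842 bp upstream at chr3:9967495-9967918, of −log10 p 4.12. It was the farthest member peak outside a gene under the 50 kb limit. The peaks at Lpl and Fabp4 held 0 and 1 CpGs. Cd36, a fatty acid receptor of the cell surface, and Acsl1, Acsl3 and Acsl5, further acyl-CoA synthetases, had no peak in any class, and at Acsl3 the nearest midpoint was 168986 bp away.

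The droplet coat had a single promoter peak, at Plin4, a perilipin of small droplets in fat cells. It had a −log10 p of 6.47 at chr17:56109627-56110001, with the midpoint 11 bp upstream of the TSS. Plin5, a perilipin of tissues that burn fat, was next to a peak 2958 bp upstream of its TSS at chr17:56120279-56120830, just inside the 3 kb limit, whose nearest protein-coding TSS belonged to another gene. With a −log10 p of 3.75 it was the smallest member peak, and 98.7% of the deposited peaks were larger. Fitm2, which acts in droplet budding, was nearest to a peak 9254 bp upstream at chr2:163481671-163482095, of −log10 p 8.36. Plin1, the main perilipin of adipocytes, Plin2, Plin3, Cidec, which enlarges droplets by fusion, and Bscl2, which encodes seipin, had no peak in any class. For Plin1 the nearest midpoint was 60264 bp from a TSS.

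**Figure D2:**
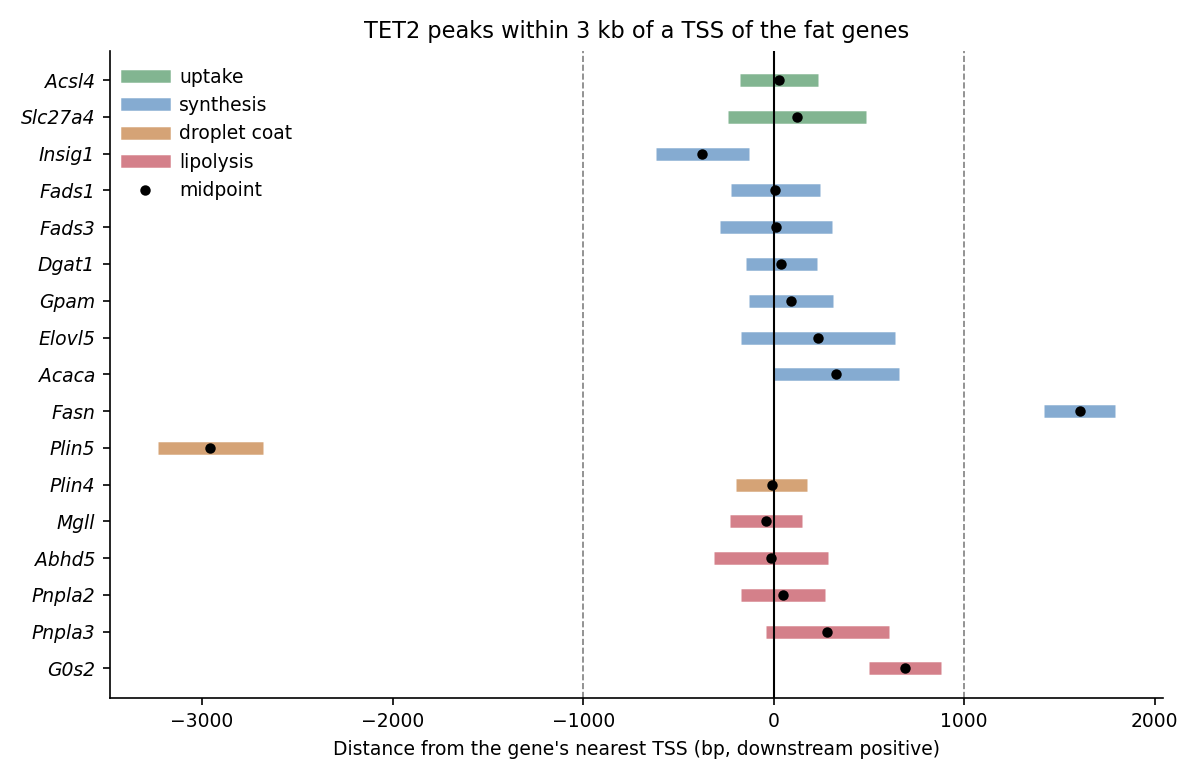
TET2 peaks of the 17 members with a midpoint within 3 kb of a TSS, drawn to scale along the distance from the gene's nearest TSS (x axis, bp, downstream positive), one gene a row. Bars show the peak interval coloured by step, black points the midpoint and dashed lines the 1 kb limit; 13 of the 15 promoter peaks cover the TSS, and those at Insig1 (374 bp upstream) and G0s2 (689 bp downstream) do not.

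The 15 promoter peaks resembled promoter peaks of protein-coding genes in general. Their midpoints lay downstream of the TSS in 11 of 15 cases (73.3%), against 71.3% of the 5170 promoter peaks of all protein-coding genes. The median offset was 39 bp downstream, against 100 bp, and 9 midpoints lay within 100 bp of the TSS. By annotation, 9 midpoints were in a 5′ UTR, 3 in an intron, 1 in a coding exon and 2 outside the gene. In all 15 the member's TSS was the nearest of any protein-coding gene, and in 5 a TSS of another gene was within 1 kb of the midpoint.

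The −log10 p of the member promoter peaks ran from 5.13 to 11.1 with a median of 7.21 (n = 15), against a median of 6.83 over the 5170. Of the 15, 9 were above the latter median. The 19 member peaks outside promoters ran from 3.75 to 11.5 with a median of 6.21, equal to the 6.21 of the 8933 such peaks in the list. The length was the shortest in the list, 375 bp, for 3 of the 15 promoter peaks (20%) and 8 of the 19 others (42.1%), against 1084 of the 5170 and 3425 of the 8933 (38.3%) in the list. The largest value in the list was 335.2.

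**Figure D3:**
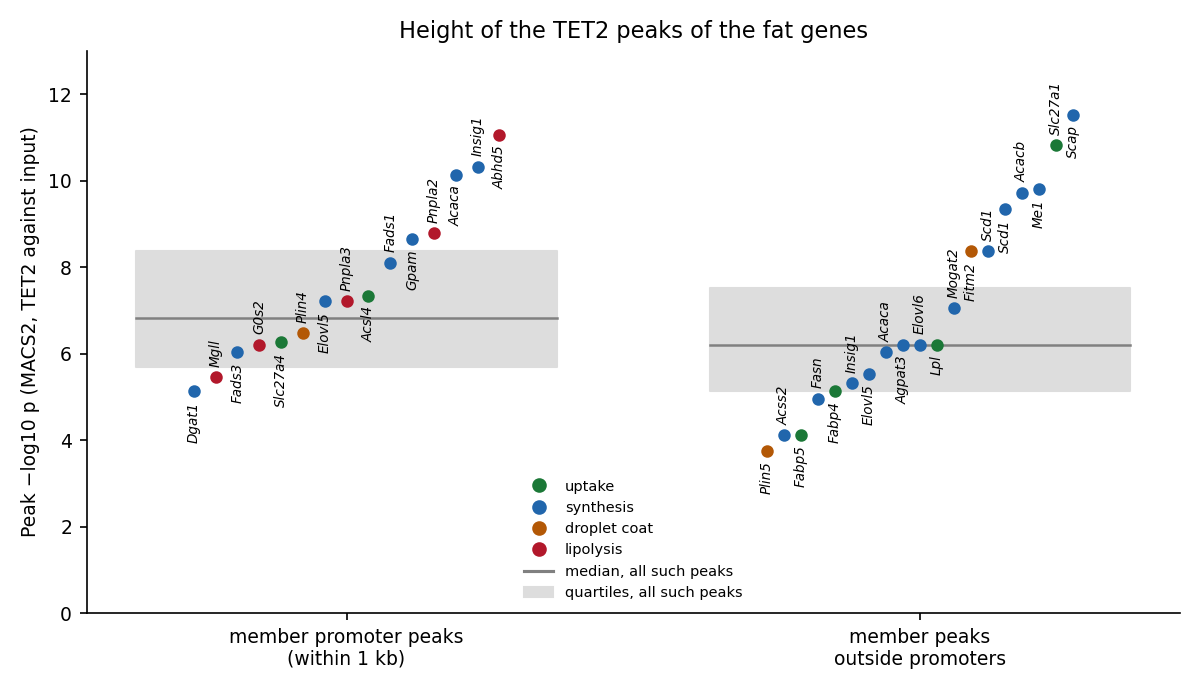
The −log10 p from MACS2 (y axis) of the 34 member peaks, for the 15 promoter peaks and the 19 peaks outside promoters (x axis), each point 1 peak labelled with its gene and coloured by step. Grey bands and lines show the quartiles and median of all 5170 promoter peaks of protein-coding genes (median 6.83) and of all 8933 other peaks (median 6.21); Abhd5 (11.1) and Scap (11.5) are highest.

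The CpG content of the promoters was then compared between members with and without a promoter peak. The CpG ratio is the observed number of CpGs over that expected from the C and G content, counted 500 bp each side of a TSS, and a gene was called CpG-rich if any of its TSSs reached 0.6. Of 32 CpG-rich members 13 had a promoter peak (40.6%, 23.7 to 59.4), against 39.2% of all CpG-rich protein-coding genes. Of 22 CpG-poor members 2 had one (9.09%, 1.12 to 29.2), against 8.4% of all CpG-poor genes. With the limit at 0.75 the shares were 42.1% of 19 members against 43.3% of all above it, and 20% of 35 members against 15.0% of all below it. At both limits the interval of the members' share held that of all genes. The median ratio was 0.772 in the 15 members with a promoter peak and 0.597 in the 39 without, against 0.788 and 0.493 over all protein-coding genes with and without.

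The steps differed in promoter CpG content. The median ratio was 0.373 in the droplet coat genes, 0.615 in the uptake genes, 0.632 in the lipolysis genes and 0.760 in the synthesis genes. All 4 CpG-rich lipolysis genes had a promoter peak, against 7 of 21 CpG-rich synthesis genes, 2 of 5 uptake genes and 0 of 2 droplet coat genes. The 2 CpG-poor members with a promoter peak were Plin4, whose ratio of 0.125 was the lowest of all members, and G0s2 with 0.324. CpG-poor members without one included Cd36 (0.230), Aqp7 (0.253), Fabp4 (0.256), Cidec (0.262) and Plin1 (0.277). High CpG content did not go with a peak at every gene, since Lpin2 (1.08), Agpat3 (0.953), Fasn (0.946) and Acsl3 (0.920) had no peak within 1 kb.

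**Figure D4:**
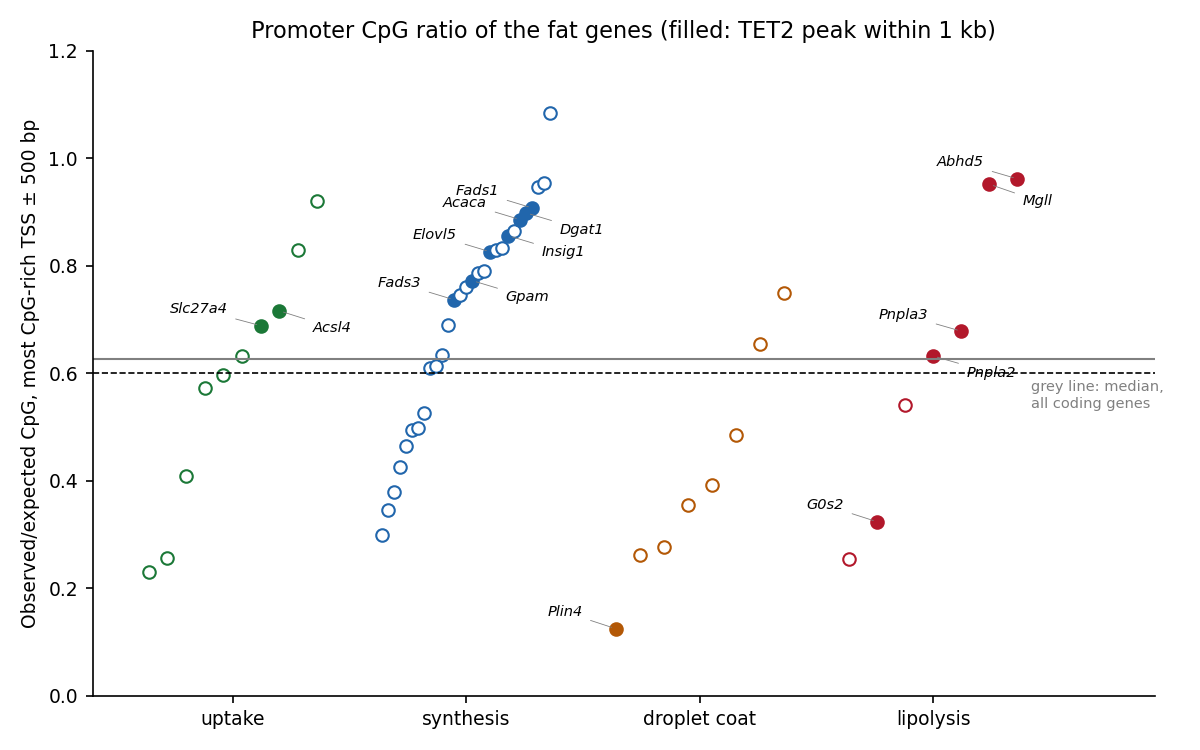
CpG ratio of the most CpG-rich TSS of each of the 54 members (y axis, observed over expected CpG, 500 bp each side of the TSS) by step (x axis), each point 1 gene, filled and named where a TET2 peak lies within 1 kb. The dashed line marks 0.6 and the grey line the median of all protein-coding genes, 0.627; 13 of the 15 filled points are above the dashed line, and Plin4 (0.125) and G0s2 (0.324) are below it.

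Motifs were searched on both strands within 100 bp of the midpoint of the 15 promoter peaks and, for comparison, of all 5170 promoter peaks of protein-coding genes. The SP1 GC box, GGGCGG, was present in 9 of 15 (60%, 32.3 to 83.7) against 47.0% of all, at Abhd5, Acaca, Acsl4, Elovl5, Fads3, Gpam, Insig1, Mgll and Slc27a4, and in 12 (80%) against 73.6% within 250 bp. The NF-Y box, CCAAT, was in 3 (20%) against 12.5%, at Fads1, Plin4 and Pnpla2, and in 6 (40%) against 31.6% within 250 bp. The E-box CACGTG, which ChREBP and SREBP factors can bind, was in 1 (6.67%) against 5.07%, at Acaca, and in 2 (13.3%) against 11.5% within 250 bp. The C/EBP motif TTGCNNAA was in 0 of 15 against 2.55%, the ETS motif CCGGAAG in 0 against 6.23%, the sterol element TCACNCCAC in 0 against 0.658%, and the DR1 element, AGGNCA repeated after 1 base, in 0 against 0.0580%. A count of 0 in 15 has an interval up to 21.8%, so the shares of these 4 motifs cannot be told from those of the list, and all 4 were also at 0 of 15 within 250 bp.

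The other genes of the pathway, a list of 51 further enzymes, receptors and regulators, had a promoter peak in 20 cases (39.2%, 25.8 to 53.9), beside 27.8% of the members and 24.6% of all protein-coding genes, which lies below that interval. The 51 genes were a mix of CpG-rich and CpG-poor genes, with CpG ratios from 0.0568 at Awat1 to 1.05 at Mbtps1. Their share was not split by CpG content, so it cannot be set against the 39.2% of all CpG-rich protein-coding genes. Whether CpG content played a part was not tested. The list was chosen with earlier results of these data known, and the difference from 24.6% was not tested. In synthesis these were 13 of 27, namely the sterol-regulated factors Srebf1 and Srebf2 and the protease Mbtps2 that activates them, the oxysterol receptor Nr1h3, Slc25a1, Idh1, Pcx, Mcat, Elovl4, Elovl7, Hsd17b12, Tecr and Gpat4. Taking for each of these 20 the promoter peak nearest its TSS, Mbtps2 had the largest −log10 p, 11.5. In lipolysis they were 5 of 10, among them the receptor gene Adrb1, the phosphodiesterase Pde3b, which lowers cyclic AMP, the glycerol channel Aqp3 and the lipase Pnpla8. In uptake the transporter Slc27a3 was 1 of 8, and in the droplet coat the GTPase Rab18 was 1 of 6. Another 3 (Nr1h2, Fitm1 and Adrb3) had a peak at 1 to 3 kb and 4 (Cav1, Pck1, Gk and Abhd6) in the gene body, and 24 had none. By step the shares were 50% in lipolysis (18.7 to 81.3), 48.1% in synthesis (28.7 to 68.1), 16.7% in the droplet coat (0.421 to 64.1) and 12.5% in uptake (0.316 to 52.7), beside 71.4%, 24.1%, 12.5% and 20% of the members, and the intervals of the 4 steps overlap.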

How the data were processed

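TET2 was profiled by ChIP-seq in 1 library with 1 input library. Per the labels and methods, the authors removed poor reads and adapters, mapped the rest with Bowtie, called peaks with MACS2 2.1.0 against the input, and deposited intervals with the −log10 p of each peak. The labels name mm10 and the methods GRCm39. Coordinates were used on GRCm38 (mm10), as given, since peaks sit at its annotated TSSs (24.3% within 200 bp). Peaks were placed by midpoint on GENCODE M21 TSSs; RefSeq and GRCm38.p6 supplied alternatives and sequence. Only the placement of peaks was tested on simulated data, with peaks planted upstream of genes that lay far from others. That test held no gene body peaks. Every member is named; those with a peak within 3 kb or in the gene body are given with interval, offset, annotation and −log10 p. Printed bases lie outside the exons of GENCODE and RefSeq, a change from the planned 200 bp around the midpoint. The members and lists were chosen with earlier results of these data known. Alternatives were other TSS sets, windows, peak positions, thresholds on −log10 p, nearest-gene rules, motif windows and CpG limits. The input library by itself was not analysed here. Tables were handled with pandas 2.3.3 and numpy 2.4.6 in Python 3.11.15, sequences with pysam 0.24.0, intervals with scipy 1.17.1 and plots with matplotlib 3.10.9.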

Additional observations from a re-analysis of the deposited data

How the results depend on the processing

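Of 91 values recomputed under other settings, 67 stayed within 1.5 times the count or within the 95% interval of the share, and 24 moved further. The count of members with a promoter peak was 15 with TSSs of protein-coding transcripts, 13 with the gene's 5′ end alone (without Acaca and Gpam), 16 with RefSeq (with Lpin1), 15 by any base of the peak, 14 with 500 bp (without G0s2), 16 with 2 kb (with Fasn) and 15 at a −log10 p of at least 5. At 8 or more it was 6: 0 in uptake, 4 in synthesis, 0 in the droplet coat and 2 in lipolysis, with 0 at 1 to 3 kb, 5 in the gene body, 1 in the nearest class and 42 with none. The share of all protein-coding genes with a promoter peak, which moved beyond its narrow interval in each case, was 23.2% with coding transcripts, 20.1% with the 5′ end, 23.7% with RefSeq, 25.3% by any base, 21.6% with 500 bp, 26.9% with 2 kb, 22.1% at 5 or more and 7.61% at 8 or more. The members at 1 to 3 kb fell from 2 to 1 with coding transcripts, the 5′ end, RefSeq or 2 kb, and to 0 at 5 or more. The nearest class fell from 5 to 3 with a limit of 20 kb and to 1, Fitm2, with genes of every type. No paired analysis was possible because a single TET2 library leaves nothing to pair. Reads per library are not given in the sources used here, so a missing peak cannot be told from binding too weak to be called, and 9 of the 15 promoter peaks were below 8.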
